A study of Mus musculus with 2 samples.

Results

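The cathepsins are the proteases of the lysosome, and the 10 described here are Ctsa, Ctsb, Ctsc, Ctsd, Ctsh, Ctsk, Ctsl, Ctss, Ctsw and Ctsz. They were taken by symbol, whatever their level, from the 32285 genes counted in single cells, among which 23 symbols name a cathepsin. The cells were CD45+ leukocytes sorted from tumors of MC38, a mouse colon carcinoma line, that had been inoculated into both flanks of male C57BL/6 mice aged 6 to 8 weeks. In both groups the tumor on the right flank, at about 300 mm3, was treated by microwave ablation (MWA), which destroys tissue by heat, and the untreated left tumor was collected on day 8. Whether the mice of the MWA library received an isotype control antibody is not stated for these libraries. In the MWA plus anti-TIGIT group, here called the combination, an antibody that blocks the inhibitory T and NK cell receptor TIGIT was injected intraperitoneally 3 times, every 3 days, from 1 day after ablation, as the labels give it. The study's methods give another number of injections, and which holds for this library is not settled here. Each group was 1 droplet library (10x Genomics, 3′ tags with unique molecular identifiers, UMIs), the number of mice behind it is not given in the sources used here, and no library of untreated mice entered the comparison, so the effect of MWA itself cannot be read. The question put to these genes was in which tumor leukocytes each cathepsin was transcribed and whether its level differed between the libraries.

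The MWA library held 10217 cell barcodes and 66152465 UMIs, and the combination library 10190 barcodes and 78751205 UMIs. After filtering and removal of called doublets, 9231 and 9127 cells remained, and 37 barcodes occurred in both libraries. Clusters built without any cathepsin gave 22 cell types, named "-like" from marker genes, or left unnamed. The largest class was tumor-associated macrophage (TAM)-like, with 3678 and 3792 cells, and its clusters are given below by number with their leading genes. Levels are UMIs of a gene per 1000000 UMIs of a cell type (CPM). These are 3′ tags, so they are not divided by gene length. Cell types are called told apart where both libraries of one lie above both libraries of the other. The 7 macrophage genes C1qa, C1qb, C1qc, Apoe, Ms4a7, Pf4 and Lyz2 summed to 43976 and 50946 CPM in TAM-like cells and to 992 and 1007 CPM in CD8 T-like cells, whose 5 T cell genes (Cd3d, Cd3e, Cd3g, Trac, Trbc2) summed to 4653 and 5166 CPM. With 1 library a group no test of the treatment was possible: every interval below is an exact 95% interval of counting error alone, and mouse-to-mouse spread is not in it.

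Cathepsins are made as inactive precursors and are activated in the acid of endosomes and lysosomes, where they degrade proteins taken up or recycled by the cell. Most are cysteine proteases of the papain type (Ctsb, Ctsc, Ctsh, Ctsk, Ctsl, Ctss, Ctsw, Ctsz), whereas Ctsd is an aspartic protease and Ctsa a serine carboxypeptidase that also protects other lysosomal enzymes. In antigen-presenting cells Ctss and Ctsl trim the invariant chain of MHC class II. In cytotoxic lymphocytes Ctsc, dipeptidyl peptidase I, activates granzymes, and in osteoclasts Ctsk degrades bone collagen. Tumor macrophages are a known major source of these proteases.

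The genes lie on 7 chromosomes of the mouse genome (GRCm38, GENCODE vM21). Ctsa (chr2:164832873-164841032, plus strand) and Ctsz (chr2:174427493-174439039, minus strand) are on chromosome 2, and Ctsc (chr7:88278085-88310888, plus) and Ctsd (chr7:142375911-142388038, minus) on chromosome 7. Ctsh is at chr9:90054152-90076089 (plus), Ctsl at chr13:64359337-64370890 (minus), Ctsb at chr14:63122462-63145923 (plus) and Ctsw at chr19:5465043-5468507 (minus). Ctsk (chr3:95499256-95509362) and Ctss (chr3:95526786-95556403) are neighbors on the plus strand of chromosome 3, 17423 bases apart. No gene counted in these libraries overlaps a cathepsin on its own strand.

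RefSeq (GRCm38.p6) gave 8 promoters for 7 of the genes, of which the 250 bases before the start were searched on both strands. The letters searched were CACGTG, the E-box of the lysosomal gene network read by TFEB and TFE3, GAGGAAGT (PU.1), TGTGGT (RUNX), TGACTCA (AP-1) and the core of the interferon-stimulated response element, GAAA repeated after a gap of 2 bases. CACGTG occurred before the RefSeq starts of Ctsd and Ctsl and the second start of Ctsa, and in 6.02% of all 32851 promoters of this length. The windows of Ctsl (chr13:64370521-64370770) and of the second Ctsa start lay within the GENCODE genes placed above. That of Ctsd lay partly within its gene. The interferon core occurred before Ctss, and in 2.98% of all promoters. GAGGAAGT occurred before Ctsc (in 2.44% of all) and TGTGGT before the first start of Ctsa (in 14% of all). TGACTCA, in 4.46% of all, was in none of the 8 windows. Shown are Ctsd (chr7:142387828-142388077, minus strand), which had 2 E-boxes, and the neighbors Ctss (chr3:95526536-95526785) and Ctsk (chr3:95498960-95499209) on chromosome 3, with the matched letters in capitals. These matches describe the letters and not binding.
Ctsd promoter: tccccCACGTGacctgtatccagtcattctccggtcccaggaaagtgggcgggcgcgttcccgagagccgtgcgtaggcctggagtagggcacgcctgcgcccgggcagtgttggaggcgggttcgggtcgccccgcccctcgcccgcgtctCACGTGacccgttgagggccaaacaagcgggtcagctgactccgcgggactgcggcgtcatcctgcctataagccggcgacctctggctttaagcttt
Ctss promoter: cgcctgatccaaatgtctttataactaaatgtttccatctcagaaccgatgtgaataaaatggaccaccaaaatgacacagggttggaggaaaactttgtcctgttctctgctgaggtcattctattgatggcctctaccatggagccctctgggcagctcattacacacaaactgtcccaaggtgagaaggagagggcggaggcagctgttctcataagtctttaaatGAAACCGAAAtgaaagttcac
Ctsk promoter: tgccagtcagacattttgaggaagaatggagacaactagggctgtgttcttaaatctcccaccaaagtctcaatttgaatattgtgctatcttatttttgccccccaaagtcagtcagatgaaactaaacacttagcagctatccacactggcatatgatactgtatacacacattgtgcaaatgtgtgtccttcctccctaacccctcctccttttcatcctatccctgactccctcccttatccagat

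Cathepsins took a larger share of the transcripts in macrophages and monocytes than in lymphocytes. The 10 genes together made 0.955% and 1.15% of all UMIs of TAM-like cluster M1 in the MWA and combination libraries (this order of the libraries is kept below), 0.974% and 1.12% in TAM-like M0 and 0.837% and 0.986% in TAM-like M2. Monocyte-like M3 cells held 0.624% and 0.727%, neutrophil-like cells 0.376% and 0.367% and mature dendritic cell (DC)-like cells 0.284% and 0.337%. In lymphocytes the share was far lower, 0.121% and 0.15% in CD8 T-like and 0.15% and 0.154% in NK-like cells, and it was lowest in stem-like T-like cells at 0.0617% and 0.0743%.

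**Figure D1:**
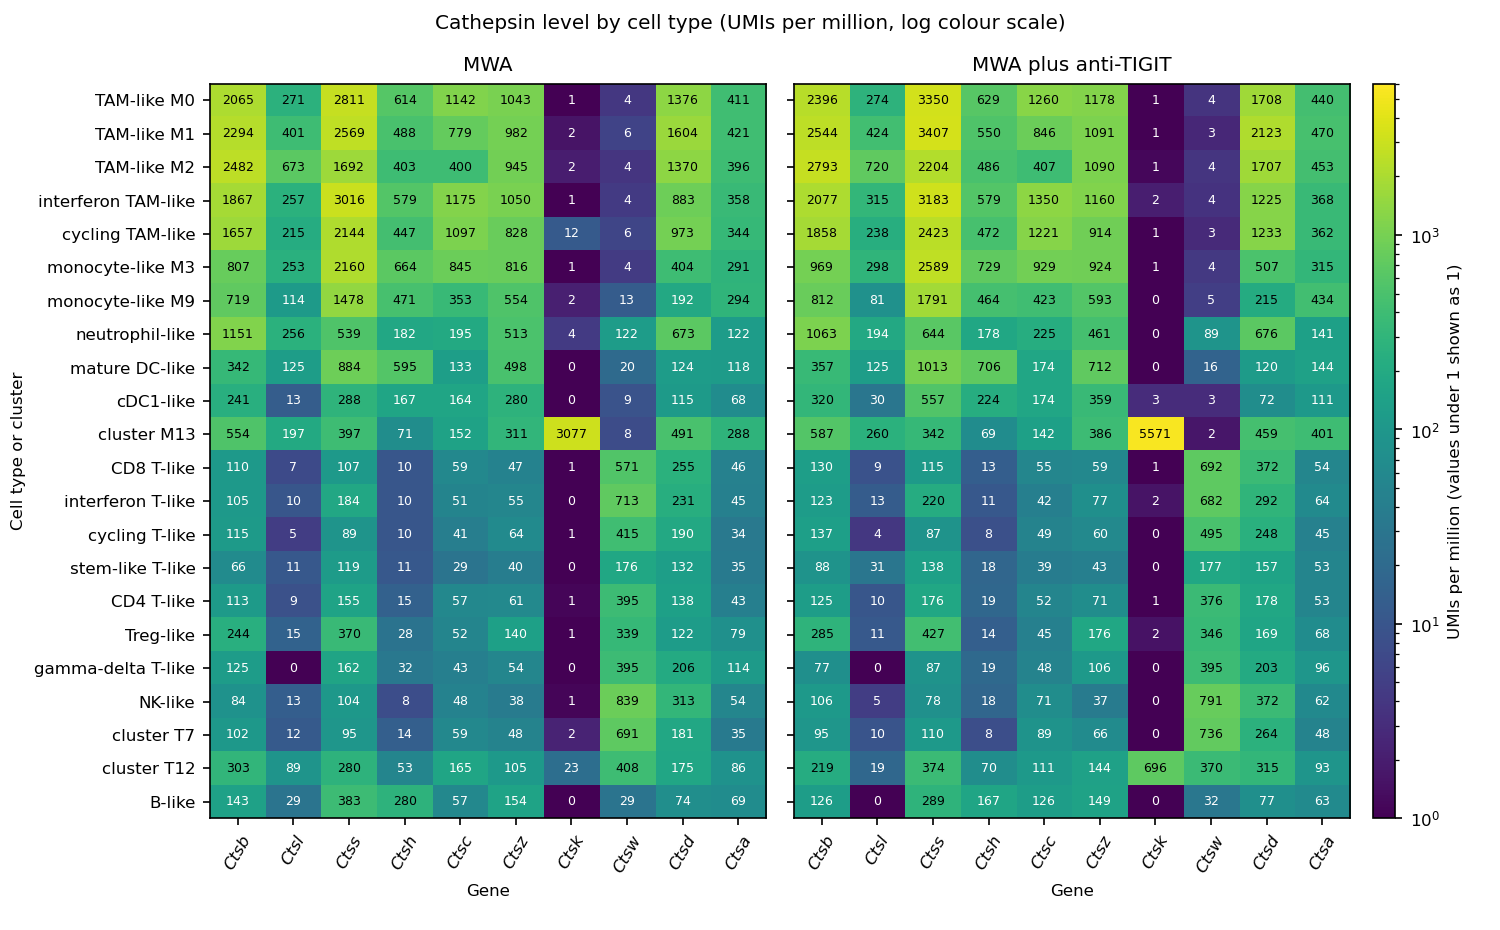
Level of each cathepsin (columns) in 22 cell types or clusters (lines) in the MWA library (left) and the combination library (right), in CPM on a log color scale with the value printed in each cell. Ctsb, Ctss and Ctsd were bright across the TAM-like clusters, Ctsw in T and NK-like cells, and Ctsk in cluster M13, at 3077 CPM in the MWA library and 5571 CPM in the combination library.

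The make-up of these transcripts differed by lineage. Ctss was 28.9% and 29.8% and Ctsb 21.2% and 21.3% of the family's UMIs in TAM-like M0, and Ctsd 14.1% and 15.2%. Ctsw made 47.1% and 46.2% in CD8 T-like cells and 55.8% and 51.4% in NK-like cells, and Ctsd 21% and 24.9% in the former and 20.8% and 24.2% in the latter. In Treg-like cells Ctss was 26.6% and 27.7%, Ctsb 17.6% and 18.5% and Ctsw 24.4% and 22.4%. In mature DC-like cells Ctsh took 20.9% and 21%, beside Ctsz at 17.6% and 21.2%, and Ctss 31.1% and 30.1%. In B-like cells Ctss was 31.5% and 28.1% and Ctsh 23% and 16.2%, from only 213 and 228 UMIs of the family.

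**Figure D2:**
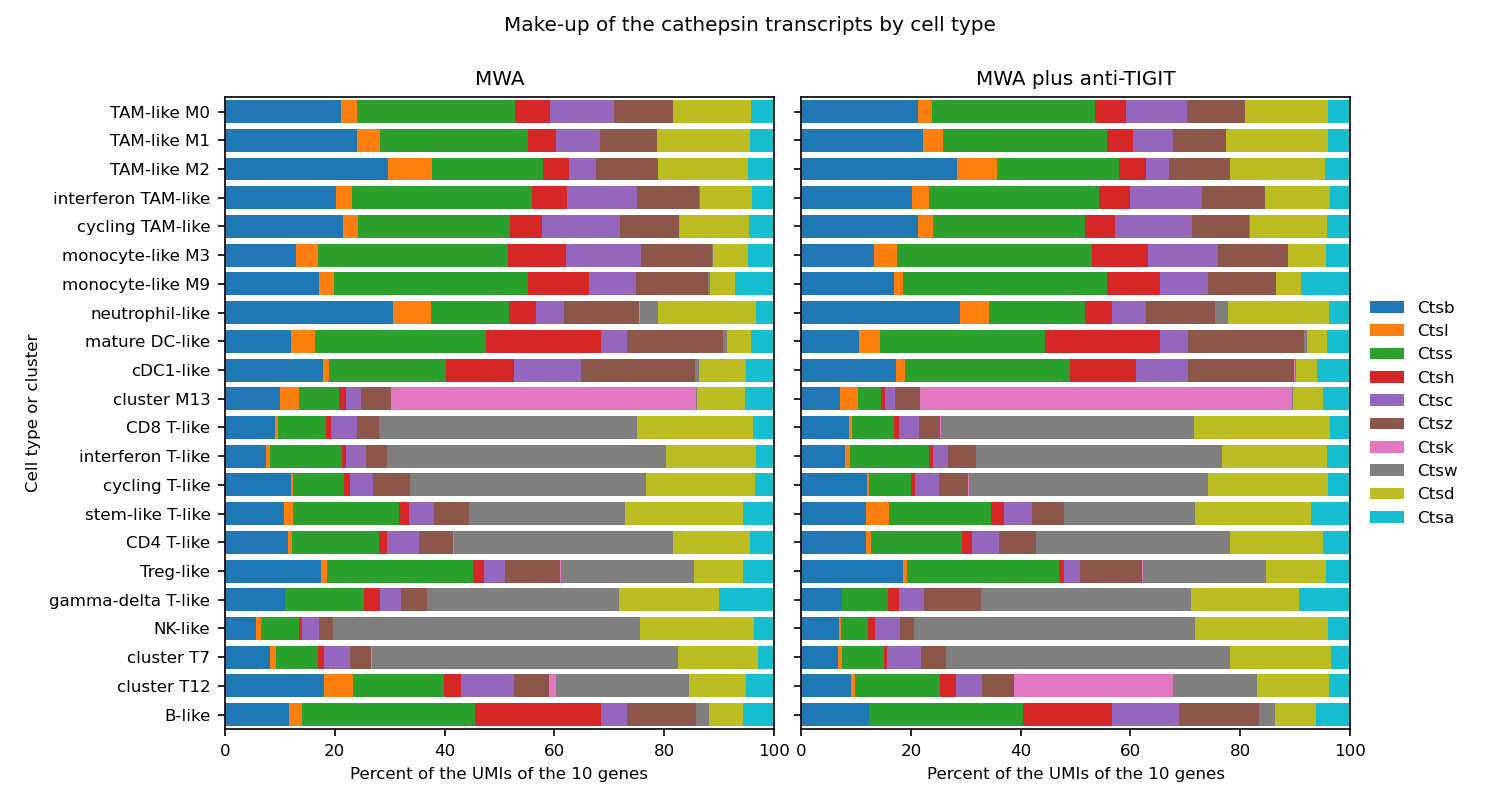
Share of each gene among the UMIs of the 10 cathepsins (horizontal axis, percent) in each cell type or cluster, MWA library left and combination library right. In TAM-like M0, M1 and M2 the Ctss, Ctsb and Ctsd segments were the widest, in CD8 T-like and NK-like cells those of Ctsw and Ctsd, and in cluster M13 that of Ctsk.

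The endopeptidases Ctsb, Ctsl and Ctss differed in level between the macrophage clusters. TAM-like M2 was led by Hspb1, Mmp12, Hmox1, Hilpda and Bnip3. Among the 22 cell types Ctsb, which cuts both within and at the ends of proteins, was highest there, at 2482 and 2793 CPM. Cluster M5, kept out of the types for its low depth, is described at the end. It was close behind in M1 (Slc7a2, Arg1, Ltc4s, Folr2), at 2294 and 2544 CPM, and in M0 (Ccl8, Selenop, Ccl12, Mrc1), at 2065 and 2396 CPM. M1 was not told apart from M2 or M0, M2 lay above M0, and monocyte-like M3 (Chil3, Il1b), at 807 and 969 CPM, lay below all of them. Ctsl, another endopeptidase, had the same order of the 3 clusters. It reached 673 and 720.4 CPM in M2, 401 and 424 CPM in M1 and 271 and 274 CPM in M0, each told apart from the next. Monocyte-like M3, at 253 and 298 CPM, was not told apart from M0.

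Ctss, which works at neutral as well as acid pH, had another order. Interferon TAM-like cells (Rsad2, Cxcl10, Ifit3) held 3016 and 3183 CPM, M0 2811 and 3350.4 CPM and M1 2569 and 3407 CPM, and these 3 were not told apart. TAM-like M2 held 1692 and 2204 CPM, below each of them, and was not told apart from monocyte-like M3 at 2159.9 and 2589 CPM. Mature DC-like cells had 884 and 1013 CPM and type 1 DC (cDC1)-like cells 288 and 557 CPM. At the other clustering resolution the place of the mature DC-like cluster of 172 cells was taken by 106 cells led by Cd209a, Ly6d, Ifitm1 and Siglech and 69 cells led by Ccl22, Fscn1 and Ccr7, so the levels given for mature DC-like cells are not of mature DCs alone. Regulatory T (Treg)-like cells, at 369.6 and 427 CPM, were told apart from CD4 T-like cells, at 155 and 176 CPM.

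Among the exopeptidases, Ctsc, the dipeptidyl peptidase, was lower in M2 than in the other TAM-like clusters. Its level was 1175 and 1349.7 CPM in interferon TAM-like cells, 1142 and 1259.6 CPM in M0, 1097 and 1221 CPM in cycling TAM-like cells, 779 and 846 CPM in M1 and 400.2 and 407 CPM in M2. CD8 T-like and NK-like cells, where Ctsc activates granzymes, held 58.8 and 54.8 CPM and 47.7 and 71.5 CPM, below each TAM-like cluster.

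Ctsh, an aminopeptidase, was found in monocytes and dendritic cells as well as in macrophages. Monocyte-like M3 held 664 and 729 CPM, mature DC-like cells (Ccl22, Fscn1, Ccr7) 595 and 706 CPM and TAM-like M0 614 and 629 CPM, and mature DC-like cells were not told apart from either of the others, while monocyte-like M3 lay above M0. B-like cells, at 280.3 and 167 CPM, lay above every T and NK-like type. In CD8 T-like cells the level was 10.3 and 13.2 CPM. Ctsz, a carboxypeptidase also called cathepsin X, was not told apart among the larger TAM-like clusters, from 945 and 1089.9 CPM in M2 to 1043 and 1178 CPM in M0. It was 498 and 712 CPM in mature DC-like cells, 140.5 and 176 CPM in Treg-like cells and 37.7 and 37.4 CPM in NK-like cells, the lowest of the 22 types in both libraries.

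Ctsd, the aspartic protease, was found in macrophages and, at lower levels, in neutrophils and in T and NK cells. TAM-like M1 had 1604 and 2123 CPM, M0 1376 and 1708 CPM and M2 1370.1 and 1707 CPM, and these 3 were not told apart. Neutrophil-like cells held 673 and 676 CPM. NK-like cells, at 313 and 372 CPM, and CD8 T-like cells, at 255 and 372 CPM, were above mature DC-like cells, at 124 and 120.1 CPM, and monocyte-like M9 (Hp, Plac8, Ace, Vcan), at 192 and 215 CPM, in both libraries. CD4 T-like cells, at 138 and 178 CPM, also lay above mature DC-like cells, but below M9. Treg-like cells were not told apart from mature DC-like cells, and B-like cells, at 74.4 and 76.7 CPM, lay below them. Ctsa, the serine carboxypeptidase, was 421 and 469.6 CPM in M1, 396 and 453 CPM in M2 and 291 and 315 CPM in monocyte-like M3. Monocyte-like M9, at 294 and 434 CPM, and cluster M13, at 288 and 401 CPM, were not told apart from M3. Ctsa was lower in mature DC-like cells, at 118 and 144 CPM, and in CD8 T-like cells, at 46.2 and 53.6 CPM.

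Ctsw, also called lymphopain and known from NK and CD8 T cells, was low in macrophages. NK-like cells led with 839 and 791 CPM, told apart from the next type. Cluster T7 (Klra7, Trdc, Klra1) held 691 and 736 CPM, interferon T-like cells 713 and 682 CPM and CD8 T-like cells 571 and 692 CPM, which were not told apart. CD4 T-like cells, at 395 and 376 CPM, and Treg-like cells, at 339 and 346 CPM, carried it too. Stem-like T-like cells (Dapl1, Lef1, Tcf7), at 176 and 177 CPM, were the lowest of the T and NK-like types. Neutrophil-like cells had 122 and 89 CPM, from 28 and 17 UMIs. In them all 7 lymphocyte genes set for free RNA (Cd3d, Cd3e, Cd3g, Trac, Trbc2, Cd8b1 and Nkg7) reached 50 CPM in a library. The part of lymphocyte RNA in their Ctsw level was not tested. After thinning every cell to 1000 UMIs, Ctsw was detected in 45.4% (42.7 to 48.1) and 50.2% (47.6 to 52.8) of CD8 T-like cells. In TAM-like M0 cells the shares were 0.399% (0.13 to 0.928) and 0.33% (0.0899 to 0.842). Thinning left out 12 and 19 CD8 T-like and 0 and 0 M0 cells that were shallower. Unthinned, the shares were 85.8% and 87.8% and 3.59% and 3.87%, at median depths of 4183 and 3831 UMIs in CD8 T-like and 8830 and 10887 UMIs in M0 cells. In all TAM-like cells Ctsw stood at 0.868% and 0.47% of its CD8 T-like level. The same 7 lymphocyte genes stood there at 0.229% to 0.702% and 0.174% to 0.388%, so Ctsw was above them in both libraries. The part of free RNA or of doublets in this level was not tested.

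Ctsk was a gene of very few cells. It was 3077 and 5571 CPM in cluster M13, a cluster of 25 and 29 cells, and this cluster held 88.6% and 93.1% of all Ctsk UMIs of the libraries. M13 was led, besides Ctsk, by Mmp9, Acp5 (the tartrate-resistant acid phosphatase), Slc9b2 and Atp6v0d2. These genes are known from osteoclasts, a cell for which no marker list had been set, and the cluster was left unnamed. Outside M13 the level was low, such as 0.706 and 0.732 CPM in M0, and 0.768 and 0.736 CPM in CD8 T-like cells.

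Cell by cell, 15 of 8922 typed MWA cells and 19 of 8779 combination cells held 5 or more Ctsk UMIs, and these 15 and 19 cells carried 95.8% and 98.4% of the Ctsk UMIs of all typed cells. Of them 13 and 17 were in M13, with 11 to 304 Ctsk UMIs a cell (median 66) in the MWA library and 6 to 534 (median 166) in the combination library. All 13 and 17 also had Acp5, from 35 to 367 and from 64 to 822 UMIs a cell, and 6 and 12 had 5 or more Mmp9 UMIs. Their C1qa count reached 5 UMIs in 2 and 3 cells only. The ranges of Ctsk counts of the 2 libraries overlapped.

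The rest of M13 was not of 1 kind. In 10 and 8 cells Ctsk was at 0 to 3 and 0 to 1 UMIs, and 9 and 4 of these still had 5 or more Acp5 UMIs. In 2 and 4 further cells 2 or more UMIs of Dcn, a fibroblast matrix gene, were found with no UMI of Ctsk, Acp5 or Ptprc, the gene of CD45. Without these Dcn cells the level of Ctsk in M13 was 3903 and 6833 CPM.

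The highest Ctsk levels outside M13 came from 1 or 2 cells each. Cluster T12 (Hspa1b, Ccl1, Dnajb1), a cluster among the T cells, held 23 and 696 CPM. In the combination library this was 100 UMIs in one cell and 87 in another, which also held 93 and 147 Acp5 UMIs, 9 and 6 Cd3e UMIs and 43030 and 20636 UMIs in all. In the MWA library it was 7 UMIs in 1 cell. Without cells of 5 or more Ctsk UMIs, T12 was at 0 and 4.85 CPM. One cycling TAM-like cell of the MWA library held 93 Ctsk and 100 Acp5 UMIs, and without it that type fell from 11.6 to 0.592 CPM. Whether these cells were doublets was not tested beyond the doublet calls, which had not removed them.

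**Figure D3:**
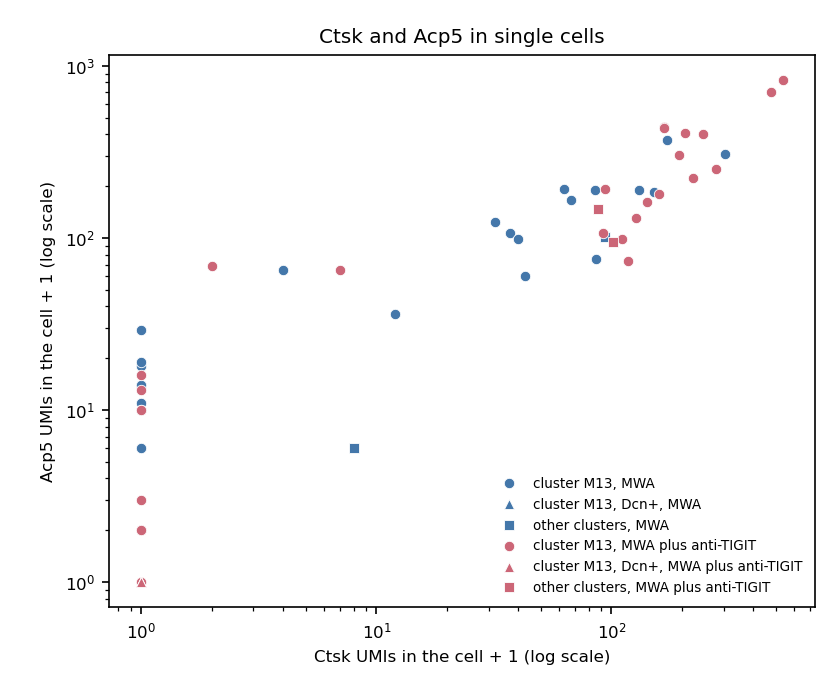
Ctsk UMIs (horizontal axis) and Acp5 UMIs (vertical axis), each plus 1 on a log scale, in every cell of cluster M13 and every other cell with 5 or more Ctsk UMIs, colored by library. Cells rich in Ctsk were rich in Acp5 in both libraries, up to 534 Ctsk and 822 Acp5 UMIs, while the Dcn+ cells (triangles) sat at the origin.

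Low cathepsin counts in lymphocytes can be free macrophage RNA, so each level was set beside 7 macrophage genes that lymphocytes should lack (C1qa, C1qb, C1qc, Apoe, Ms4a7, Pf4 and Lyz2). In CD8 T-like cells these stood at 1.82% to 2.44% of their TAM-like level in the MWA library and 1.56% to 2.16% in the combination library. Ctsh, at 2.01% and 2.42% of its TAM-like level, and Ctsl, at 2.08% and 2.42%, were within that range in the MWA library and above it in the combination library. Ctsd, at 19.6% and 22.3%, and Ctsa, at 11.8% and 12.6%, were above it in both libraries. Between these lay Ctsc (6.2% and 5.29%), Ctsb (5.33% and 5.54%), Ctsz (4.87% and 5.46%) and Ctss (4.37% and 3.87%), each over the highest of the 7 genes in both libraries. Thinned to 1000 UMIs, 10.6% and 10.7% of CD8 T-like cells had a C1qa UMI, 10.6% and 12.6% a Ctsb UMI and 22% and 31.7% a Ctsd UMI.

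In Treg-like cells Ctss, Ctsz and Ctsb stood further above the macrophage genes. Their macrophage genes were at 2.58% to 4.94% and 2.12% to 2.7% of the TAM-like level, but Ctss stood at 15.1% and 14.4%, Ctsz at 14.6% and 16.3%, Ctsb at 11.8% and 12.2% and Ctsa at 20.1% and 15.9%. Ctsd, at 9.35% and 10.1%, was also above the range, and lower than in CD8 T-like cells. Ctsh at 5.4% and 2.55%, and Ctsl at 4.52% and 3.12%, were not above the macrophage genes in both libraries. Thinned, 32.6% (29.2 to 36.1) and 34.9% (31.1 to 38.8) of Treg-like cells had a Ctss UMI, against 12% (10.3 to 13.8) and 11.1% (9.55 to 12.8) of CD8 T-like cells, and a C1qa UMI was found in 15.5% and 15.5% of Treg-like cells.

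Neutrophil-like cells held more of the macrophage genes. With a median depth of 1012.5 and 1238 UMIs, they held the 7 macrophage genes at 9.45% to 24.6% and 6.31% to 16.7% of the TAM-like level. Ctss (22% and 21.7%) was not above that range in both libraries, nor was Ctsc (20.6% and 21.8%). For these genes the outcome rested on Lyz2, which alone set the upper end of 24.6% in the MWA library. The 7 genes had been set as ones that lymphocytes should lack. Whether neutrophil-like cells transcribe Lyz2 themselves was not tested, so it is not a sure mark of macrophage RNA in them. Apoe came next there at 16.1%, and was highest in the combination library at 16.7%. Both Ctss and Ctsc lay above Apoe in both libraries. Ctsb (55.8% and 45.5%), Ctsl (75.4% and 53%), Ctsz (53.3% and 42.8%), Ctsd (51.6% and 40.5%), Ctsh (35.6% and 32.5%) and Ctsa (31% and 33.2%) were above the whole range. At the other clustering resolution the class had 96 and 88 cells in place of 118 and 97, and 99443 and 116229 UMIs in place of 230221 and 190910. The part of free RNA or of macrophage fragments in these levels was not tested.

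**Figure D4:**
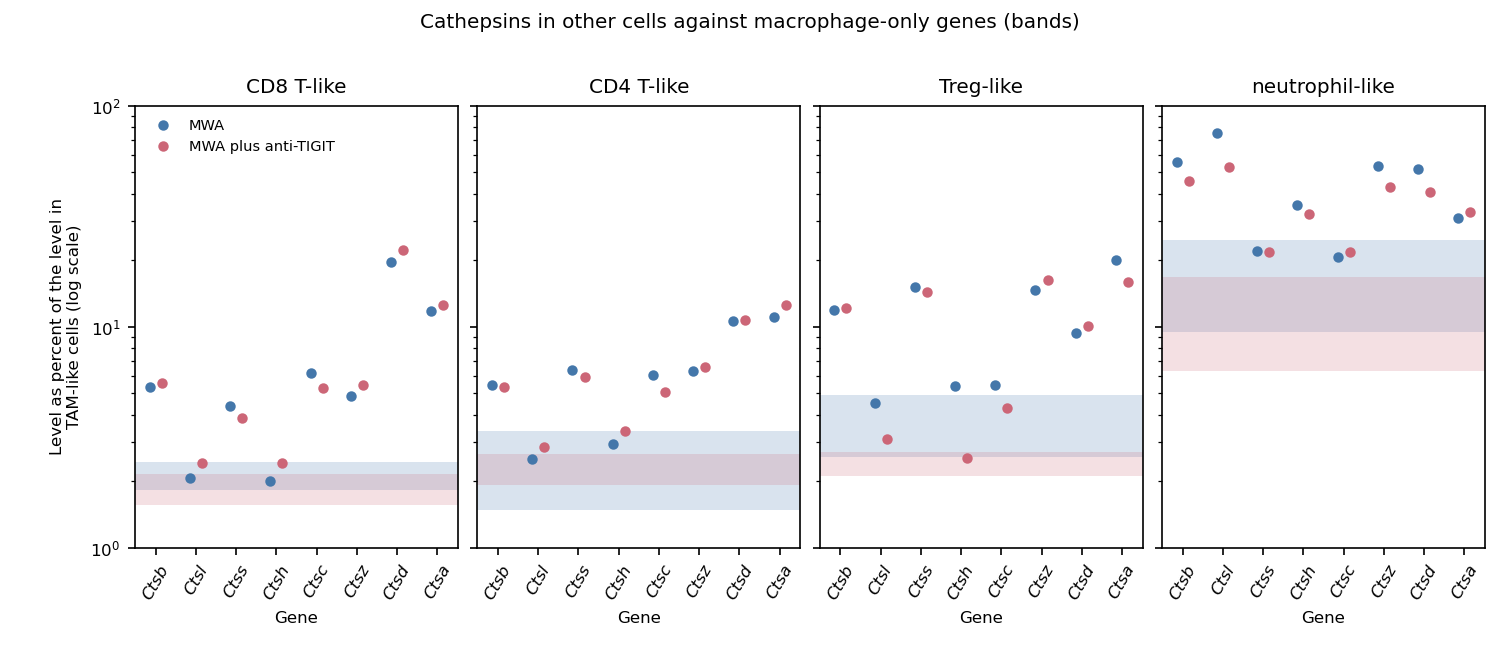
Level of 8 cathepsins in CD8 T, CD4 T, Treg and neutrophil-like cells as percent of the level in TAM-like cells (vertical log axis), one point a library. Bands span the 7 macrophage genes in each library: Ctsd and Ctsa stood far above them in T cells, Ctss, Ctsz and Ctsb in Treg-like cells, and Ctsl and Ctsh near them in CD8 T-like cells. In neutrophil-like cells the upper end of the MWA band was Lyz2.

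Between the libraries, the cathepsins of macrophages were slightly higher in the combination library, and none by 1.5-fold. Of the genes tested (at least 50 CPM in one library and 20 UMIs in all), 0.469% of 2556 in TAM-like cells and 0.523% of 2486 in monocyte-like cells were 1.5-fold apart in either direction. None of the 8 cathepsins tested in TAM-like cells and none of the 8 in monocyte-like cells was among them. All 8 had a ratio above 1 in both classes. Their median log2 ratio was 0.14 against 0.045 over all genes in TAM-like cells, and 0.20 against 0.04 in monocyte-like cells. The share of all genes with a ratio above 1 is not given here. Ctsh was the lowest of the 8 in both classes, and 774 of 2556 and 707 of 2486 genes had a ratio at least as high. Among cells of at most 5000 UMIs, the ratios of Ctsa (-0.048) and Ctsl (-0.12) in TAM-like cells turned negative, as did those of Ctsd (-0.041), Ctsh (-0.10) and Ctsl (-0.50) in monocyte-like cells. Ctsk and Ctsw were below the limit in both classes.

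The highest ratio in TAM-like cells was that of Ctsd, at 1304 CPM in the MWA library and 1667 CPM in the combination library, a log2 ratio of 0.35 [0.34 to 0.37], the bounds of the interval standing in brackets here and below. It lay between 0.31 and 0.47 in each of the 7 TAM-like clusters, and 37 of the 2556 genes, Ctsd included, had a ratio as high. Ctss was at 2444 CPM in the MWA library and 2964 CPM in the combination library, a log2 ratio of 0.28 [0.27 to 0.29], and a ratio as high was found for 69 genes. Ctsb had 0.18 [0.17 to 0.20] and Ctsz 0.16 [0.14 to 0.19], while Ctsa, Ctsc, Ctsh and Ctsl lay between 0.10 and 0.12. The median depth of TAM-like cells was 8710 and 10702 UMIs, and of the 7 macrophage genes, which are no cathepsins, 6 of 7 had a ratio above 1, with a median log2 ratio of 0.10. In monocyte-like cells Ctsd (0.33 [0.24 to 0.42]) and Ctss (0.27 [0.23 to 0.31]) had the highest ratios, that of Ctsd with the sign change given above.

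In DC-like cells 9.87% of 2574 genes were 1.5-fold apart, and 1 of 8 cathepsins tested, Ctsz. It was at 391 CPM in the MWA library and 590.3 CPM in the combination library, a log2 ratio of 0.59 [0.41 to 0.78]. The call was lost with TMM factors, with doublets kept and at the other clustering resolution. The class joins mature DC-like and cDC1-like cells, and the cDC1-like share of it was 41.3% and 25.7%. Within each type the log2 ratio was below the limit of 0.58, at 0.52 [0.30 to 0.74] in mature DC-like and 0.36 [-0.0019 to 0.71] in cDC1-like cells. In cDC1-like cells alone Ctss (0.95 [0.63 to 1.27]), Ctsa (0.71 [0.007 to 1.41]) and Ctsd (-0.68 [-1.42 to 0.027], from 61 and 24 UMIs) were past it, while Ctss in mature DC-like cells had 0.20 [0.024 to 0.37]. The cDC1-like type had only 62 and 29 cells. Its own share of all genes past the limit is not given here, and the 9.87% is of the joined class. The other cathepsins with intervals above 0 in the class were Ctss (0.53 [0.38 to 0.68]), Ctsh (0.49 [0.30 to 0.68]), Ctsa (0.50 [0.12 to 0.89]) and Ctsb (0.24 [0.01 to 0.46]). Among cells of at most 5000 UMIs the ratios of Ctss (-0.13) and Ctsh (-0.22) turned negative. The 7 macrophage genes together were at 2439 and 3372 CPM in this class, and their part in these ratios was not tested.

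CD8 T-like cells had 1.38% of 2318 genes 1.5-fold apart and none of the 7 cathepsins tested. Ctsd came close, at 255 CPM in the MWA library and 372 CPM in the combination library, a log2 ratio of 0.54 [0.45 to 0.63] against a median of 0.14 over all genes, and 34 of the genes tested, Ctsd included, had a ratio as high. Scaled by TMM, which takes out most of that median, the ratio was 0.42. It was above 0 in each of the 4 CD8 T-like clusters, from 0.22 in T5 (Ccl1, Nrgn, Xcl1, Pdcd1) and 0.46 in T3 (Cd8b1, Cd8a, Klk8) to 0.51 in T2 (Ccl5, Gzma, Gzmk) and 0.77, past 1.5-fold, in T4 (Ly6c2, Cd8b1, Dut). T2, which had 333 and 474 CPM of Ctsd, made 33.4% and 49.3% of the class, and without it the ratio was 0.43 [0.32 to 0.55]. Without T5 it was 0.71 [0.60 to 0.82]. Of the 5 macrophage genes measured in these cells 3 had a ratio above 1, with a median log2 ratio of 0.023. Thinned to 1000 UMIs, 22% (19.8 to 24.3) and 31.7% (29.3 to 34.1) of CD8 T-like cells had a Ctsd UMI, and unthinned 62% and 71.7%.

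Ctsw in CD8 T-like cells was at 571 CPM in the MWA library and 692 CPM in the combination library, a log2 ratio of 0.28 [0.21 to 0.34], and Ctsz had 0.33 [0.11 to 0.55]. The list of cytotoxic granule genes had a median log2 ratio of 0.35 in these cells, and 2 of 7 were past 1.5-fold, Gzmb (0.74) and Gzmk (1.08), the latter a leading gene of T2, whose share of the class differed as given above. For Ctsc, which activates granzymes, the ratio was -0.10 [-0.31 to 0.11], whose interval spans 0. In NK-like cells Ctsw had -0.085 [-0.25 to 0.081].

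In the CD4 T, Treg and NK-like classes no cathepsin was 1.5-fold apart. The count was 0 of 7 in CD4 T-like cells, where 0.712% of 2248 genes were, 0 of 7 in Treg-like cells (1.83% of 2792) and 0 of 6 in NK-like cells (8.95% of 2446). Ctsd was again the highest in CD4 T-like (0.37 [0.19 to 0.55]) and Treg-like cells (0.47 [0.22 to 0.72]). In NK-like cells Ctsc had the highest ratio, 0.58 [-0.057 to 1.22], from 43 and 44 UMIs, and the interval spans 0. Smaller T cell types had ratios past the limit from few UMIs, such as Ctss in gamma-delta T-like cells with 30 and 9 UMIs. B-like cells, 82 and 63 cells, had 29.7% of 2098 genes 1.5-fold apart and 2 of 7 cathepsins, Ctsc with 10 and 28 UMIs (1.14 [0.059 to 2.35]) and Ctsh with 49 and 37 UMIs (-0.75 [-1.40 to -0.10]). With B cells taken by a gate on Cd79a and Ms4a1 instead of clusters, the ratio of Ctsh was 0.0014. The 6 B cell genes summed to 6120.4 and 4562 CPM in B-like cells, the 5 plasma cell genes to 429 and 8172 CPM and the 5 T cell genes to 395 and 587 CPM, and their part in these ratios was not tested. In neutrophil-like cells, 118 and 97 cells, 31.2% of 2497 genes were apart and 0 of 9 cathepsins. All 9 intervals there spanned 0. At the other resolution 1 was past 1.5-fold, Ctsc, with an interval of its log2 ratio from 0.16 to 4.44.

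**Figure D5:**
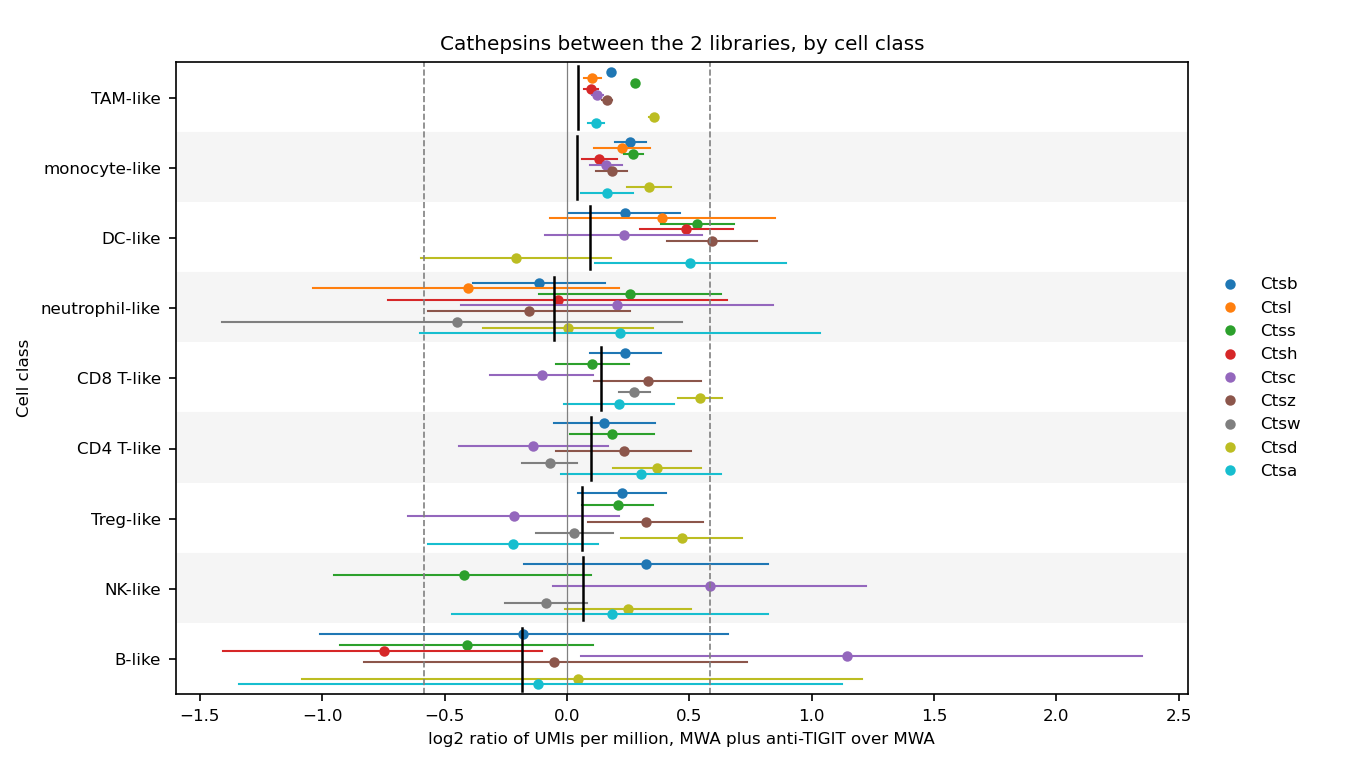
Log2 ratio of the level in the combination library over the MWA library (horizontal axis) for each cathepsin tested in 9 cell classes, with exact 95% counting intervals. Black bars mark the median of all genes tested in the class and dashed lines the 1.5-fold limit. The 8 cathepsins of TAM-like and monocyte-like cells lay right of the median, Ctsd farthest, and the intervals of neutrophil-like and B-like cells were wide.

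In TAM-like cells none of the lysosomal lists held a gene 1.5-fold apart between the libraries. The median log2 ratio over all genes tested there was 0.045, so a ratio above 1 was common, and its share over all genes is not given here. The list of lysosomal proteases and processing enzymes had 6 of 6 measured genes above 1 and a median log2 ratio of 0.15, the glycosidases and lipid hydrolases 13 of 14 measured genes above 1 and a median log2 ratio of 0.10, and the membrane and acidification genes 13 of 13 measured genes above 1 and a median log2 ratio of 0.11. Lgmn, the legumain that processes several cathepsin precursors, was at 964 and 999 CPM, with a log2 ratio of 0.052. Of the sorting and control genes 2 of 10 were measured, Grn at 0.18 and M6pr at 0.05. The class II loading genes had 6 of 7 measured genes above 1 and a median log2 ratio of 0.06.

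The inhibitors of cathepsins differed by cell type. Cst3, the secreted cystatin C, was 12267 and 11241 CPM in mature DC-like cells, 3046 and 3145 CPM in M0 and 170.1 and 187 CPM in CD8 T-like cells. Cstb, the cytosolic cystatin B, was higher in M2, at 1182 and 1178 CPM, than in M0, at 559 and 583 CPM. Cst7, the cystatin F of cytotoxic granules, was 155 and 151 CPM in NK-like and 3.09 and 4.17 CPM in M0 cells. The stefin Stfa2l1 was found in neutrophil-like cells, at 417 and 864 CPM, with no UMI in CD8 T-like cells. It has near copies among the stefins, between which reads may be split. In TAM-like cells 3 of 16 inhibitor genes were measured and none was 1.5-fold apart: Cst3 had a log2 ratio of 0.041, Cstb of 0.0018 and Serpinb6a of 0.42.

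The genes most like each cathepsin were sought by Pearson's r of log2 levels over 44 points, the 22 types in each of the 2 libraries, among 5717 candidates. The points share library, depth and clustering, so r is a description. Ctsb was closest to Lgmn, App and C3ar1 (r = 0.967, 0.961 and 0.957) and Ctss to Lrp1, Ms4a6c and Fcgr2b (r = 0.959, 0.955 and 0.951). Ctsz was closest to App, Grn and Milr1 (r = 0.956, 0.956 and 0.951) and Ctsl to Ftl1, Cd68 and Dnase1l1 (r = 0.954, 0.953 and 0.934). Ctsa was closest to Ccl9, Plxnb2 and Nupr1 (r = 0.956, 0.953 and 0.951) and Ctsd to Tmem37, Pdpn and Hgsnat (r = 0.921, 0.905 and 0.878). Ctsh was closest to Pld4, Ly86 and Lmo2 (r = 0.969, 0.966 and 0.961), and Ctsc to P2ry6, Slc7a8 and Itgb5 (r = 0.957, 0.955 and 0.955). Ctsw was closest to Thy1, Skap1 and Il2rb (r = 0.983, 0.983 and 0.979), and Ctsk to Slc9b2, Bdh2 and Cd109 (r = 0.969, 0.947 and 0.934). Slc9b2, Bdh2 and Cd109 were among the leading genes of M13, which held most Ctsk UMIs, so r for Ctsk mainly restates that cluster. Within the family the closest pair was Ctss and Ctsz (r = 0.961), while r of Ctsw with every other member was below 0.

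The 13 other cathepsin symbols were low in the typed cells. Ctso was 26 and 27.4 CPM in TAM-like M0 and 25.6 and 27.4 CPM in Treg-like cells, and Ctse 6.3 and 6.18 CPM in CD8 T-like cells. Over all typed cells Ctsf had 208 and 225 UMIs and Ctsg 2 and 1. The 9 remaining symbols, among them the placental cathepsins Ctsj, Ctsm, Ctsq and Ctsr, had no UMI in any typed cell. None of the 13 reached 50 CPM in typed cells other than B-like cells, where Ctso had 57.2 and 31.6 CPM from 10 and 7 UMIs. The typed cells leave out cluster M5, led by mast cell genes such as Cma1 and Mcpt4. Levels of the 13 symbols in M5 are not given here.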

How the data were processed

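Both libraries (10x Genomics 3′ v3.1) had been aligned to mm10 and counted by the authors with Cell Ranger, given as version 6.1.1 in the submitters' processing notes and 4.0.0 in the matrix headers. The deposited values were raw UMI counts per gene and cell, without normalization.

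Barcodes under 200 genes or over 10% of UMIs from mitochondria were dropped, and 806 and 786 doublets, called against simulated doublets, were removed. Seurat 5.3.0 (R 4.3.3) integrated the libraries on 3000 integration features, chosen from 2000 variable features a library, without the cathepsins and clustered T and NK cells at a resolution of 1 and myeloid cells at 0.5 (40 principal components). A cluster was named from at least 2 markers among its top 10 genes, or 3 at low depth, which left M5 and T13 untyped, and as cycling where Mki67, Top2a, Birc5 and Ube2c summed to at least 400 CPM, whatever its top genes (M7 and T6 had 1 such marker among them). UMIs were summed per class and library with Python 3.11.15 (pandas 2.3.3, scipy 1.17.1). A gene was called at 1.5-fold among genes of at least 50 CPM in one library and 20 UMIs. Poisson, conditional binomial and Clopper-Pearson 95% intervals cover counting error only. Ratios, intervals and doublet calls were tested on simulated data. edgeR 4.0.16 gave TMM factors. The named genes were all members, list genes past 1.5-fold or among the 4 highest of their list in a class, and the 3 genes of highest r on log2(CPM + 10). Members and lists were chosen with earlier results of these data known.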

Additional observations from a re-analysis of the deposited data

How the results depend on the processing

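No paired analysis was possible because each group was 1 library. Of 67 member ratios, 42 kept their sign under every alternative tried. Of the 3 called at 1.5-fold, 2 kept their sign, and 1, Ctsc in B-like cells, stayed past 1.5-fold in each alternative. In the main setting 31.2% of all genes tested were 1.5-fold apart in neutrophil-like, 29.7% in B-like, 9.87% in DC-like and 8.95% in NK-like cells. Such shares are not given here for the alternatives, so the counts below cannot be set against them. The number of cathepsins 1.5-fold apart moved as follows, and the cause was not tested. With TMM factors it was 0 in DC-like cells. With the mean of per-cell CPM it was 1 in neutrophil-like and 1 in B-like cells. Among cells of at most 5000 UMIs it was 1 in neutrophil-like, 3 in DC-like, 3 in NK-like and 1 in B-like cells. With doublets kept it was 4 in neutrophil-like and 0 in DC-like cells. With the other resolution it was 1 in neutrophil-like and 0 in DC-like cells. With classes from a gate on marker UMIs it was 1 in TAM-like, 1 in neutrophil-like, 2 in NK-like and 1 in B-like cells, and Ctsh in B-like cells reversed, to a log2 ratio of 0.0014. The 1 in TAM-like cells was not among the 8 tested there in the main setting, none of which passed 1.5-fold in any alternative. With genes of at least 10 CPM the number was 1 in Treg-like cells, Ctsh, which was otherwise under the limit. TMM factors shifted all ratios by -0.12 in CD8 T-like and 0.13 in B-like cells. Leaving out single Ctsk-rich or Dcn+ cells, and each cluster of a class in turn, was chosen after seeing the data. With the other resolution 43 of the neighboring pairs of classes were told apart, against 48. Depth limited B-like, neutrophil-like, NK-like and DC-like cells, where the tested cathepsins had as few as 26 UMIs over both libraries.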

Other observations

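Cluster M5, of 260 and 304 cells with a median of 1333.5 UMIs, was kept out of every class for its low depth. It was a mixed cluster: at the other clustering resolution 93 cells led by the mast cell genes Cma1, Mcpt4, Tpsb2 and Cpa3 (2 of the MWA and 91 of the combination library) were clustered apart from 486 cells of low depth with mt-Atp8, mt-Nd4l and mt-Co2 among the leading genes (263 and 223 cells). That resolution placed the 93 cells in the TAM-like class by their cycling genes. In M5 as a whole Ctsb was at 3104 and 2567 CPM, Ctsd at 2105 and 1906 CPM and Ctss at 3854 and 3615 CPM in the MWA and combination libraries. Ctsc was at 1657 and 1505 CPM and Ctsw at 16.5 and 8.75 CPM. The Ctss and Ctsc levels of M5 lay above those of every cell type in both libraries. Its Ctsb and Ctsd levels did so in the MWA library only. Cluster T13, of 49 and 44 cells, was left out for the same reason and held 509.9 and 636 CPM of Ctsw and 461 and 454 CPM of Ctsd, from 21 and 28 and from 19 and 20 UMIs.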
